A study of Saccharomyces cerevisiae with 6 samples.

Results

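The transcripts described here encode the complexes that sort membrane proteins at the endosome and deliver them to the vacuole of the budding yeast Saccharomyces cerevisiae: ESCRT, HOPS and retromer, with the Rab protein and SNAREs of the vacuole, the cargo receptor Vps10 and the GGA adaptors. Members were taken by name, 37 genes in all out of 5449 genes tested. All 37 have 1 probe set each on the array, none of a kind that can bind several transcripts, and VPS26 was matched through its current symbol, PEP8. Group means of single members ranged from 8.50 to 12.56 (log2), and all 37 were above the array background on all 6 arrays. Levels of different probe sets are not compared with each other.

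Total RNA was measured on Affymetrix arrays in 3 samples of the wild type and 3 samples of a pmr1 deletion strain. The wild type is a haploid MATa strain of the laboratory background, given as BY4147 in some labels and BY4741 in others, and it lacks URA3, LEU2, HIS3 and MET15. The deletion strain, NGY051, carries a kan marker in place of PMR1, the gene for the Golgi pump of calcium and manganese, and all deletion samples are of this strain. Both strains grew exponentially in rich medium (YPAD) to which 5 mM calcium chloride was added, so no sample without added calcium enters the comparison, which asks how transcript levels differ between the strains under calcium load. Nothing in the labels tells whether replicates came from separate cultures, so the p-values rest on a spread between samples that may be technical.

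Proteins leaving the Golgi for the vacuole are packed by clathrin adaptors such as the GGA proteins, and the receptor Vps10 carries soluble hydrolases along that route. At the endosome, ESCRT complexes act in sequence on ubiquitinated membrane proteins and bud them into the lumen, retromer returns receptors to the Golgi, and HOPS tethers the membranes that then fuse with the vacuole through SNARE proteins under the Rab protein Ypt7. Manganese transporters and nutrient permeases are among the proteins that yeast removes through this route.

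The arrays were close to each other. Their medians over the tested probe sets were 10.34 to 10.39, and Pearson's r over probe sets (not independent of each other) was 0.997 to 0.999 for arrays of one group and 0.988 to 0.99 for arrays of different groups. The wild-type level of PMR1 was 11.81, and the gene lay below the array background on all 3 deletion arrays, at least 186-fold lower (limma adjusted p = 3.43e-07). Of the mating-type markers, all 6 of MATa cells were above background on all 6 arrays. Of the MATalpha markers, MF(ALPHA)1 was below background on every array, while STE3, SAG1 and MF(ALPHA)2 were above it on all 6. Some of these markers moved with the deletion: MFA1, MFA2, STE2 and STE6 fell, with changes of -0.66 to -0.41, ASG7 and 3 MATalpha markers rose by 0.12 to 0.55, and BAR1 (0.08, adjusted p = 0.313) and MF(ALPHA)1 (0.05, adjusted p = 0.694) did not pass the test. The calls of ASG7, SAG1 and MF(ALPHA)2 ended when single arrays were left out (adjusted p up to 0.0962, 0.108 and 0.141). The part of these markers in the values below was not tested.

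In the deletion, 11 of the 37 transcripts were higher and 4 were lower at a limma adjusted p under 0.05, where 17.5% of the 5498 tested probe sets were higher and 11.7% lower. The members' shares were 29.7% and 10.8%, so the share of lower calls was near that of the array and the share of higher calls was above it. In bulk RNA a change in every cell and a change in the share of cells with the transcript cannot be told apart. All the changes were small. The rises ran from 0.14 to 0.44 on the log2 scale, at most 1.36-fold, and the falls from 0.11 to 0.28, at most 1.21-fold. None of the members changed 2-fold, a size that 64 of the 5449 genes tested reached past the threshold. The median absolute change of all genes past the threshold was 0.26, against 0.22 for the called members. The median change of the 37 was 0.08, against 0.01 for all genes tested. A positive value was found for 28 of the 37, beside 2904 of the 5449 genes tested. The groups did not overlap for 23 members, beside 46.7% of all probe sets: 17 were on the higher side and 6 on the lower side, or 45.9% and 16.2%, beside 27.4% and 19.3%. The cumulative plot of changes shows where the members lie relative to all genes.

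**Figure D1:**
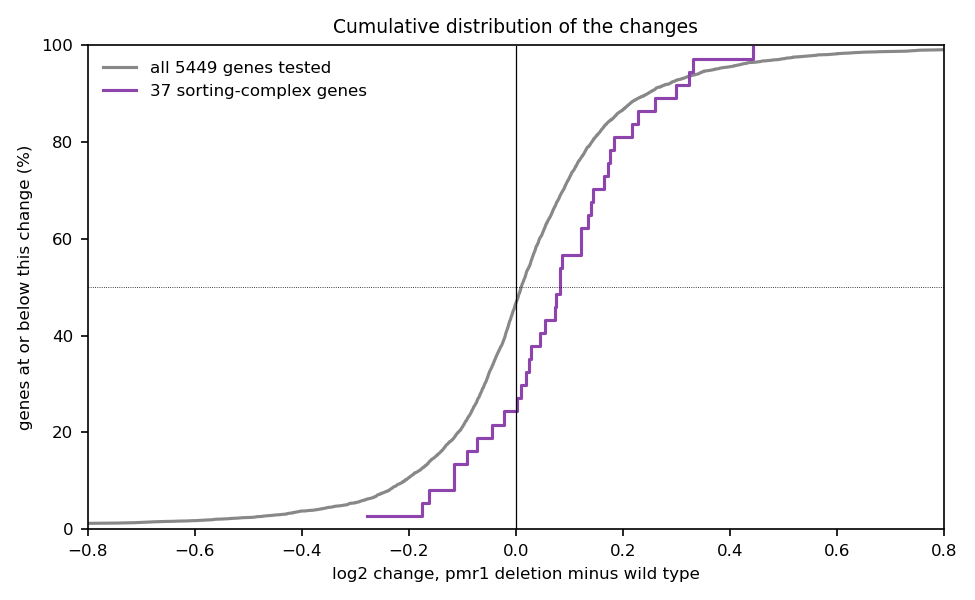
Cumulative share of genes (vertical axis, %) at or below each log2 change between the pmr1 deletion and the wild type (horizontal axis, drawn from -0.8 to 0.8; some genes lie outside it). The line of the 37 sorting-complex genes lies to the right of that of all 5449 genes over the middle of the range, with medians of 0.08 and 0.01, and the members end at -0.28 and 0.44.

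By complex, the counts stand beside 17.5% higher and 11.7% lower over all probe sets. ESCRT-0 and ESCRT-II rose in full, 5 of 5 subunits, whereas 0 of 4 ESCRT-I subunits rose (also 0 at an unadjusted limma p under 0.05) and 2 fell. In HOPS 1 of 6 subunits rose, or 16.7%, near the share of all probe sets, in retromer 2 of 5, and of the GGA pair 1 of 2. The Vps4 ATPase and its cofactor, and the pair of Bro1 and Doa4, had no member past the threshold in limma. At an unadjusted p under 0.05, 1 of these 4 genes, BRO1, passed. That unadjusted threshold was passed by 2303 of all 5498 probe sets and by 20 of the 37 members. Whether one complex differs from another was not tested, since subunits are not replicates.

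**Figure D2:**
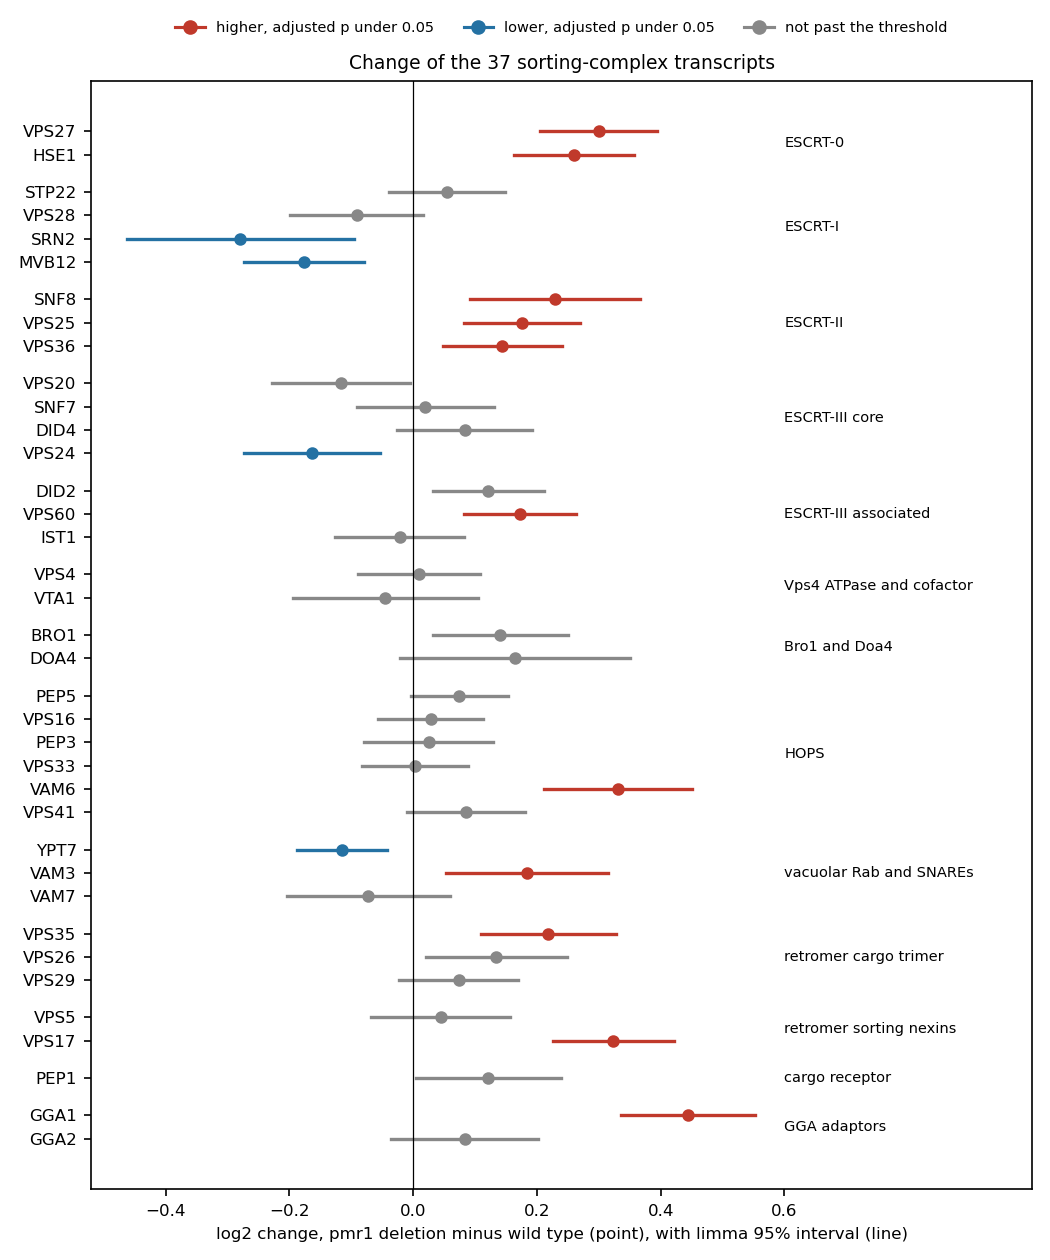
Log2 change of each of the 37 transcripts (point) between the pmr1 deletion and the wild type, with the 95% interval from limma (line), ordered by complex. Red marks the 11 higher and blue the 4 lower transcripts, and grey the 22 that did not pass the test. The largest change is that of GGA1 at 0.44, and all 3 subunits of ESCRT-II and both of ESCRT-0 lie to the right of 0.

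ESCRT-0 is the complex that first captures ubiquitinated cargo. VPS27 (YNR006W), which encodes the subunit that binds the endosomal lipid phosphatidylinositol 3-phosphate, had levels of 10.23, 10.35 and 10.29 on the wild-type arrays and 10.58, 10.61 and 10.58 on the deletion arrays. It rose by 0.30 (SE 0.04, adjusted p = 0.0022). HSE1 (YHL002W), its partner, which also binds ubiquitin, had levels of 10.83, 10.92 and 10.82 in the wild type and 11.11, 11.15 and 11.09 in the deletion, a rise of 0.26 (SE 0.041, adjusted p = 0.00427). All deletion values of both genes lay above all wild-type values, and both calls held under every alternative setting run.

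ESCRT-I takes cargo over from ESCRT-0, and 2 of its 4 subunits fell. SRN2 (YLR119W), the gene of the Vps37 subunit, had levels of 9.51, 9.44 and 9.54 in the wild type and 9.31, 9.04 and 9.31 in the deletion, where replicate 2 was the lowest. The fall was 0.28 (SE 0.078, adjusted p = 0.0355), and without wild-type replicates 1 or 3 the adjusted p was 0.0926 and 0.101. MVB12 (YGR206W), the smallest subunit, had levels of 10.24, 10.26 and 10.29 against 10.10, 10.02 and 10.13. It fell by 0.18 (SE 0.041, adjusted p = 0.0196), and its adjusted p was 0.0646 without wild-type replicate 3 and 0.0572 without deletion replicate 1. The other subunits did not pass the test. VPS28 had a change of -0.09 (95% interval -0.20 to 0.02, adjusted p = 0.177), and STP22, the gene of the ubiquitin-binding subunit Vps23, had one of 0.06 (95% interval -0.04 to 0.15, adjusted p = 0.339).

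ESCRT-II links ESCRT-I to the filament-forming ESCRT-III proteins. SNF8 (YPL002C), the Vps22 subunit, had levels of 9.90, 9.96 and 9.75 in the wild type and 10.06, 10.08 and 10.15 in the deletion, and rose by 0.23 (SE 0.058, adjusted p = 0.0263). VPS25 (YJR102C), the subunit that recruits ESCRT-III, had levels of 9.30, 9.22 and 9.28 against 9.47, 9.47 and 9.40, and rose by 0.18 (SE 0.04, adjusted p = 0.0168). VPS36 (YLR417W), the subunit that binds lipid and ubiquitin, had levels of 10.16, 10.20 and 10.13 against 10.33, 10.34 and 10.25, and rose by 0.14 (SE 0.04, adjusted p = 0.0368). The groups did not overlap for any of these transcripts, but each call depended on single arrays. SNF8 had an adjusted p of 0.0564 to 0.0826 without wild-type replicate 1 or any 1 of the 3 deletion replicates, VPS25 one of 0.0699 without deletion replicate 1, and VPS36 one of 0.0886 to 0.123 when any array but wild-type replicate 2 or deletion replicate 3 was left out.

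ESCRT-III proteins polymerise on the membrane and are removed by the ATPase Vps4. Of the 4 core genes, VPS24 (YKL041W), which acts with DID4 at the end of the filament, fell. Its levels were 10.71, 10.72 and 10.69 in the wild type and 10.62, 10.46 and 10.55 in the deletion, a fall of 0.16 (SE 0.046, adjusted p = 0.0383). That call ended when any array other than deletion replicate 1 was left out (adjusted p = 0.0691 to 0.102). SNF7, the main polymer subunit, had a change of 0.02 (95% interval -0.09 to 0.13, adjusted p = 0.795), and DID4, the Vps2 subunit, one of 0.08 (95% interval -0.03 to 0.19). VPS20, the nucleating subunit, had lower values on all 3 deletion arrays and a change of -0.12 (95% interval -0.23 to -0.0044), with an adjusted p = 0.109.

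Among the ESCRT-III relatives, VPS60 (YDR486C), which stimulates Vps4 through its cofactor Vta1, had levels of 10.20, 10.29 and 10.19 in the wild type and 10.40, 10.38 and 10.41 in the deletion. It rose by 0.17 (SE 0.038, adjusted p = 0.016), with an adjusted p of 0.0541 to 0.0632 when any array numbered 1 or 3 was left out. DID2, which recruits Vps4, had non-overlapping groups and a change of 0.12 just short of the threshold (SE 0.038, adjusted p = 0.0514). It passed without wild-type replicate 3 (adjusted p = 0.0477) but not without any other single array (0.0824 to 0.163). IST1, a regulator of Vps4, had a change of -0.02 (95% interval -0.13 to 0.08). VPS4 itself had levels of 12.05, 12.11 and 12.03 in the wild type and 12.10, 12.01 and 12.10 in the deletion. Its groups overlapped, and the 95% interval of its change ran from -0.09 to 0.11. VTA1 had a change of -0.05 (95% interval -0.19 to 0.10).

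BRO1 and DOA4 encode the scaffold and the ubiquitin hydrolase that remove ubiquitin from cargo before it is enclosed. BRO1 had levels of 9.45, 9.58 and 9.55 in the wild type and 9.62, 9.67 and 9.70 in the deletion. These groups did not overlap, and its change of 0.14 (SE 0.046) missed the threshold (adjusted p = 0.0593). DOA4 had levels of 8.45, 8.68 and 8.41 against 8.58, 8.74 and 8.71. Its change was 0.16 (SE 0.078, adjusted p = 0.159). Wild-type replicate 2 lay within the range of the deletion values of DOA4, and this gene had the widest spread in the wild type of all members (SD 0.143). Without wild-type replicate 2, BRO1 (adjusted p = 0.0437) and DOA4 (0.25, adjusted p = 0.021) both passed. When any other single array was left out, neither passed (adjusted p = 0.0916 to 0.168 for BRO1 and 0.139 to 0.376 for DOA4).

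**Figure D3:**
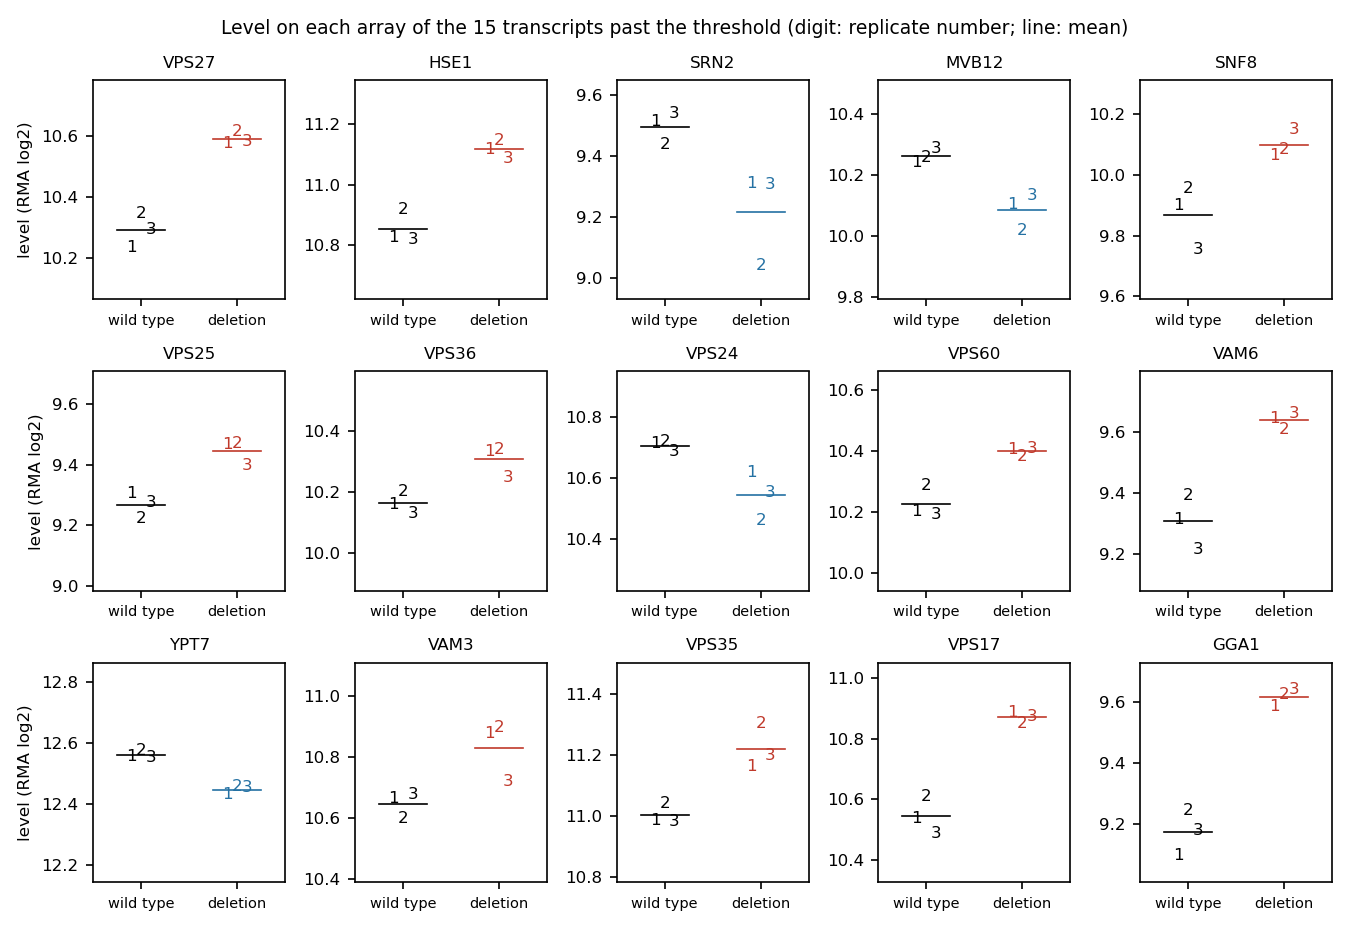
Level (vertical axis, RMA log2 value; each panel spans the same range of log2 units) of the 15 transcripts past the threshold on each array, with the digit giving the replicate number and the line the group mean. In each panel the wild-type and deletion digits do not overlap, and the widest gap between means is that of GGA1, 9.17 against 9.62.

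HOPS has a core of 4 proteins, which it shares with the endosomal tether CORVET, and the 2 subunits Vam6 and Vps41 of its own. None of the core genes passed the test, also at an unadjusted limma p under 0.05 (0 of 4, beside 2303 of 5498 probe sets). PEP5, VPS16, PEP3 and VPS33 had changes of 0.07, 0.03, 0.03 and 0.0025, and their 95% intervals lay within -0.08 and 0.15. VAM6 (YDL077C), the gene of the subunit Vps39, had levels of 9.31, 9.39 and 9.21 in the wild type and 9.65, 9.61 and 9.66 in the deletion. It rose by 0.33 (SE 0.051, adjusted p = 0.00383) and kept its call under every alternative. VPS41, the other subunit of HOPS alone, had levels of 8.52, 8.53 and 8.46 against 8.58, 8.55 and 8.64. Its groups did not overlap, but its change of 0.09 (95% interval -0.01 to 0.18) missed the threshold (adjusted p = 0.158). The change of VAM6 exceeded that of VPS41 by 0.25. The values of this difference on the 3 deletion arrays were 0.22 to 0.26 relative to the wild-type mean. Those on the wild-type arrays were lower, -0.05 to 0.06 (two-sided exact permutation p = 0.1, the smallest that 3 arrays against 3 allow). The pair was chosen with its values known, so this p-value is no independent test of the difference.

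The partners of HOPS at the vacuole moved in both directions. YPT7 (YML001W), the Rab protein that HOPS binds, had levels of 12.56, 12.57 and 12.55 in the wild type and 12.43, 12.46 and 12.45 in the deletion. The replicates lay close together (SD 0.011 and 0.014), and the fall was 0.11 (SE 0.031, adjusted p = 0.0323). VAM3 (YOR106W), the syntaxin of the vacuole, had levels of 10.66, 10.60 and 10.68 against 10.88, 10.90 and 10.72. It rose by 0.18 (SE 0.056, adjusted p = 0.0461), and deletion replicate 3 was close to the wild-type values. VAM7, the soluble SNARE that works with it, had a change of -0.07 (95% interval -0.20 to 0.06) and overlapping groups. The call of YPT7 ended without any 1 of the 6 arrays (adjusted p = 0.0513 to 0.119), and that of VAM3 without any 1 of them but deletion replicate 3 (0.0829 to 0.141).

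Retromer consists of a trimer that selects cargo and a pair of membrane-bending sorting nexins. All 5 of its genes had positive changes, as did 2904 of the 5449 genes tested. VPS35 (YJL154C), the cargo-binding subunit, had levels of 10.98, 11.04 and 10.98 in the wild type and 11.16, 11.30 and 11.20 in the deletion, and rose by 0.22 (SE 0.046, adjusted p = 0.0133). VPS26 had levels of 10.32, 10.45 and 10.43 against 10.59, 10.53 and 10.49, which do not overlap, and a change of 0.13 (SE 0.048) that missed the threshold (adjusted p = 0.0754). VPS29, the smallest subunit of the trimer, had a change of 0.07 (95% interval -0.02 to 0.17).

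Of the sorting nexins, VPS17 (YOR132W) had levels of 10.54, 10.61 and 10.49 in the wild type and 10.89, 10.85 and 10.87 in the deletion. It rose by 0.32 (SE 0.041, adjusted p = 0.0018), and its call held under every alternative, with changes of 0.296 to 0.356. VPS5, whose product pairs with Vps17, had levels of 8.76, 8.92 and 8.81 against 8.86, 8.87 and 8.90, with overlapping groups and a change of 0.04 (95% interval -0.07 to 0.16, adjusted p = 0.517). The change of VPS17 exceeded that of VPS5 by 0.28. Deletion arrays were at 0.26 to 0.31 and wild-type arrays at -0.04 to 0.06 (exact permutation p = 0.1, two-sided, the smallest possible). Since this pair was chosen after its values were seen, the p-value is no independent test. VPS5 overlaps VAM10 on the opposite strand in the R64 gene table. VAM10 had its own probe set and fell by 0.47 (SE 0.049, adjusted p = 0.00084).

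At the Golgi, the adaptor GGA1 (YDR358W) had the largest change of the 37. Its levels were 9.09, 9.24 and 9.18 in the wild type and 9.59, 9.62 and 9.64 in the deletion, a rise of 0.44 (SE 0.046, 1.36-fold, adjusted p = 0.00074), which held under every alternative. It ranked 191 among the 5449 genes ordered from the highest change. GGA2, its paralog, had levels of 11.62, 11.62 and 11.65 against 11.72, 11.62 and 11.80. The groups of GGA2 overlapped, and its change was 0.08 (95% interval -0.04 to 0.20, adjusted p = 0.256). The change of GGA1 exceeded that of GGA2 by 0.36. Deletion arrays were at 0.295 to 0.459 and wild-type arrays at -0.07 to 0.08 (exact permutation p = 0.1, two-sided, the smallest possible). As this pair too was picked with its values known, the p-value is no independent test. PEP1, the gene of the receptor Vps10, had levels of 12.06, 12.14 and 12.16 against 12.21, 12.32 and 12.20, without overlap. Its change of 0.12 (95% interval 0.0046 to 0.24) missed the threshold (adjusted p = 0.109).

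Over all members, the 22 transcripts that did not pass had changes between -0.12 and 0.16, and none of their 95% intervals reached beyond -0.23 or 0.35. In 8 of these 22, or 36.4%, the groups did not overlap. The 46.7% of all probe sets is not a like reference, since it includes those past the threshold. The share among probe sets not past it was not computed. The spread between replicates was like that of other genes, with a median SD of 0.0518 (wild type) and 0.0485 (deletion) against 0.0557 and 0.0519 over all genes. Of the 15 calls, 5 held under all 16 alternatives: VPS27, HSE1, VAM6, VPS17 and GGA1. With all probe sets of the array tested together, these 5 were the only members past the threshold.

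**Figure D4:**
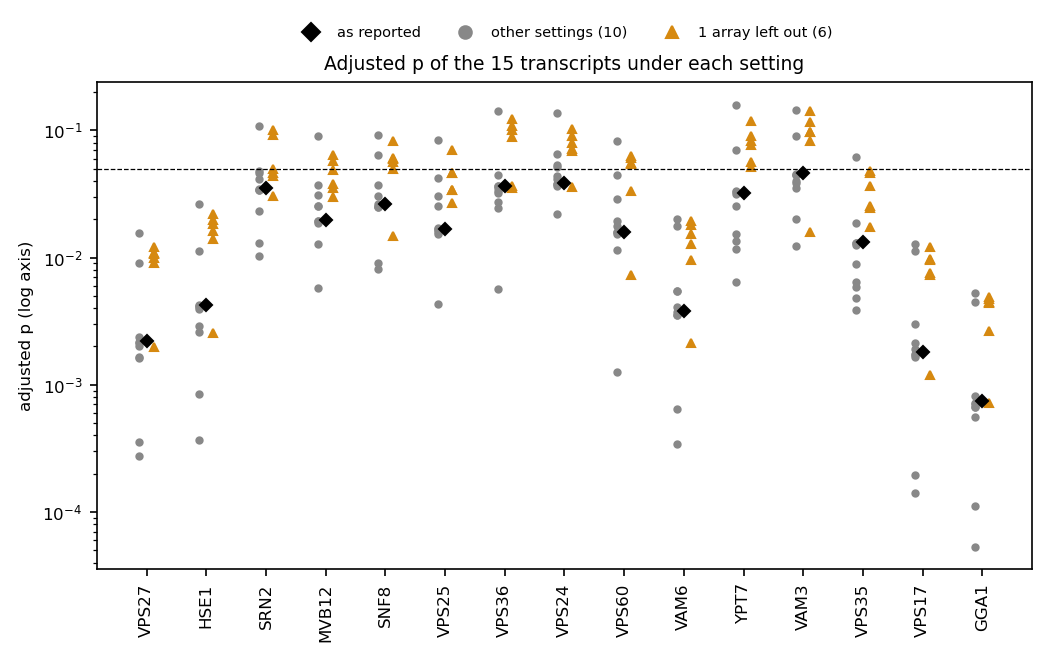
Adjusted p (vertical axis, logarithmic) of the 15 transcripts past the threshold as reported (diamonds), under the 10 other settings (circles) and with 1 array left out (triangles), with the threshold of 0.05 as a dashed line. VPS27, HSE1, VAM6, VPS17 and GGA1 stay below the line throughout, and each of the other 10 crosses it at least once.

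The genes that act beside these complexes were read from 9 lists of the same route, chosen with some of their changes known. Of 88 measured genes, 29 were higher and 2 lower, or 33% and 2.27%, with a median change of 0.09, beside 17.5% and 11.7% of all probe sets and a median of 0.01 over all genes. The share of higher genes in the lists below is to be read against that 17.5%. In endosomal fusion 4 of 11 rose: YPT53, a Rab protein of endosomes, by 1.37 (SE 0.094), PEP12, the endosomal syntaxin, from 10.01 to 10.69 (0.67, SE 0.05, adjusted p = 0.000193), VTI1, a SNARE, by 0.15, and VPS45. The CORVET subunits VPS3 and VPS8, which share the core with HOPS, had changes of 0.07 and 0.11 that did not pass (adjusted p = 0.286 and 0.262). The call of VTI1 ended without any array but wild-type replicate 3 or deletion replicate 2 (adjusted p = 0.0754 to 0.133) and under 3 other scalings (0.0667 to 0.0955).

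Among the partners of vacuole fusion 3 of 11 rose and 1 fell. The fall was that of VTC1, by 0.11 (SE 0.032, adjusted p = 0.0451), and was not tried under the alternatives. GYP7, a GTPase-activating protein of Ypt7, rose from 9.57 to 10.25 (0.68, SE 0.045, adjusted p = 0.000149), SEC18, the ATPase that takes SNAREs apart, by 0.31 (SE 0.053), and VAC8, an armadillo protein of the vacuole, by 0.18 (SE 0.036). MON1 and CCZ1, which activate Ypt7, had changes of 0.04 and -0.05 that did not pass (adjusted p = 0.448 and 0.519). Of 10 genes of phosphatidylinositol 3-phosphate and its product, 3 rose: the kinase VPS34 by 0.23, the phosphatase FIG4 by 0.18 and VAC7, an activator of the kinase Fab1, by 0.13. These 3 calls ended when single arrays were left out, with adjusted p values of 0.0514 to 0.0627 for VPS34 without any 1 array other than wild-type replicate 2, 0.0612 to 0.0742 for FIG4 without any array numbered 1 or 3, and 0.0526 to 0.127 for VAC7 without any 1 of the 6. The call of VAC8 ended once the array's other probe sets were tested too (adjusted p = 0.0699).

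In the list of recycling outside retromer 6 of 14 rose and 1 fell. The rises were led by the sorting nexin ATG20 at 0.30, the dynamin VPS1 at 0.22 (SE 0.036) and the sorting nexin MVP1 at 0.21 (SE 0.041). SNX3 fell by 0.17 (SE 0.05, adjusted p = 0.0413), a call not tried under the alternatives. ATG20 had an adjusted p = 0.0508 without deletion replicate 1. Of 10 clathrin and AP-1 genes 3 rose, the clathrin heavy chain CHC1 by 0.42 (SE 0.053, adjusted p = 0.00187), the auxilin SWA2 by 0.29 (SE 0.033) and APM1, the medium chain of AP-1, by 0.15 (SE 0.031). In the AP-3 route, which bypasses the endosome, APL6 alone of 5 rose (0.19), and its call ended without any array but wild-type replicate 2 (adjusted p = 0.0618 to 0.103). Once the array's other probe sets were tested too, MVP1, APM1 and ATG20 also lost their calls (adjusted p = 0.0534, 0.0806 and 0.0506).

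**Figure D5:**
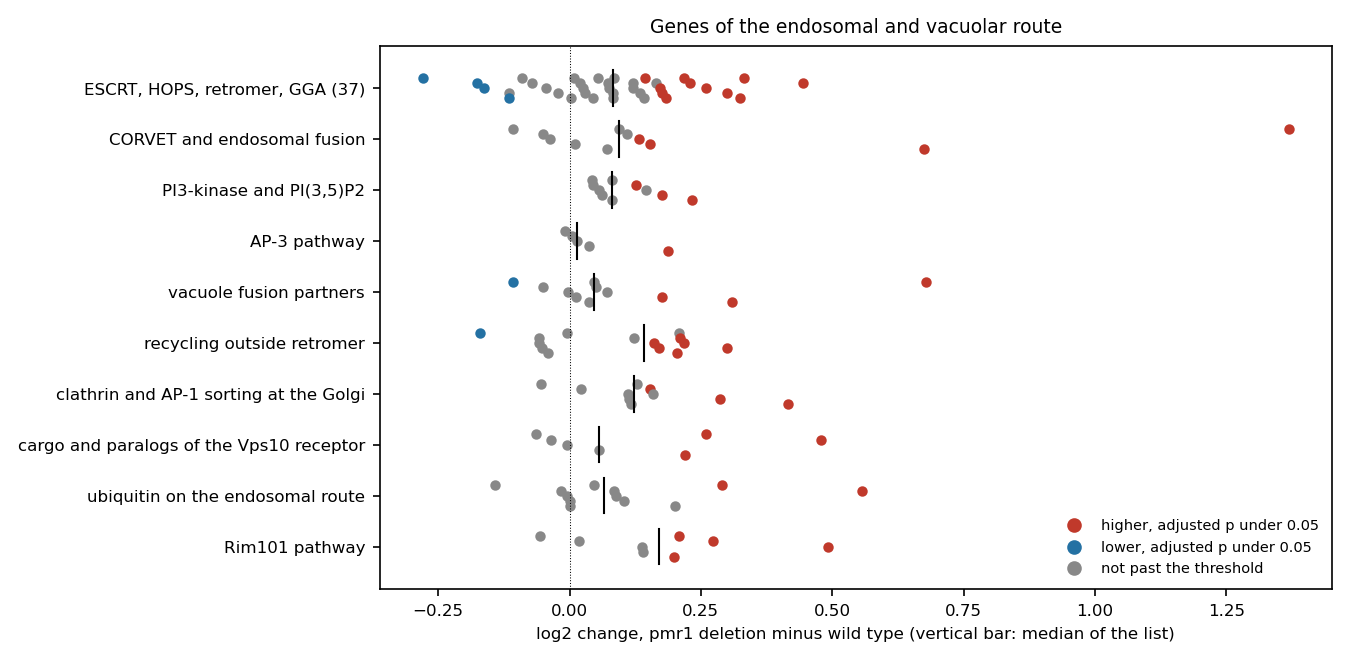
Log2 change (horizontal axis) of each gene of the sorting complexes and of 9 lists of the same route (rows), with a bar at the median of each list, red for higher, blue for lower and grey for not past the threshold. YPT53 at 1.37, GYP7 at 0.68 and PEP12 at 0.67 lie beyond all 37 sorting-complex genes, and the medians of the members and of each list lie to the right of 0.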

How the data were processed

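GCOS, RMA and limma are named, without versions, per the submitters' processing notes. The authors' deposited table holds RMA log2 values of 10928 probe sets on 6 arrays. RMA corrects background, equalises the distributions of the arrays and compresses large or dim changes. Biotin-labelled RNA was made from 100 ng of total RNA per the labels' protocols. Of the 10928 probe sets, 5498 matched S. cerevisiae genes of the R64 gene table through the probe annotation and were tested. Not tested were 1747 probe sets of S. pombe, 3470 without a name and 213 controls. No source used here names the array's genome build, and neither coordinates nor sequences are printed.

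Groups of 3 and 3 arrays were compared with limma 3.58.1 in R 4.3.3 (lmFit, eBayes, two-sided, 95% intervals unadjusted). Benjamini-Hochberg adjustment ran over all 5498 probe sets, with a threshold of 0.05, and the highest-mean probe set stood for a gene. The fit was tested on simulated data. Array background was the 95th percentile of S. pombe probe sets, 4.18 to 4.31. The number of arrays limits the precision, and the members' median SE was 0.0455. Differences between 2 genes' changes were tested by exact permutation for 4 pairs chosen after their values were seen, with an adjusted p of 0.1 for all 4. Named genes were all members, PMR1, the mating-type markers and up to 3 of each pathway list with the largest change among calls without overlap. VPS3, VPS8, VPS45, MON1, CCZ1, the neighbours and the other genes outside that rule were picked with their values known. The members and lists were chosen with earlier results of these data known. Same-numbered arrays did not deviate together (correlations of -0.138, 0.000316 and 0.0807), so no block was used. The closing section gives the alternatives. Figures used matplotlib 3.10.9 in Python 3.11.15.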

Additional observations from a re-analysis of the deposited data

How the results depend on the processing

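All 15 calls kept their direction under all 16 alternatives, and 9 of the 22 members not called passed under at least 1. Members higher, 11 as reported, were 5 with all probe sets of the array tested, 17 with array weights, 9 with the replicate block, and 6 to 12 without 1 array (7 without wild-type replicate 1, 6 without deletion replicate 1). Members lower were 4 as reported (11.7%), 0 with the whole array tested (5.37%) and 0 without wild-type replicate 3 (8.22%). In both settings with 0, 4 were lower at an unadjusted limma p under 0.05. With the replicate block 2 were lower (10.4%), and without 1 array 0 to 2 (6.78% to 11.4%). The count was 1 without wild-type replicate 1 (8.57%) and 2 without each of the remaining 4. The median change of the members, 0.08, was 0.0589 after quantile normalisation again and 0.0579 after cyclic loess. It was 0.0776 with arrays centred on their medians, 0.0903 with array weights, and 0.0626 to 0.0997 without 1 array. The median over the tested probe sets, 0.00948 as reported, moved as well. It was -0.0034 after quantile normalisation again, -0.00697 after cyclic loess, 0.00381 with centred arrays and 0.00731 with array weights. Without deletion replicate 3 it was 0.0222, beside 0.0626 for the members. Of the 5498 tested probe sets, 963 were higher and 642 lower as reported. With the whole array tested, 486 of these 5498 were higher and 295 lower, and 548 and 325 of all 10928 probe sets. Over the 5498, the counts were 1434 higher and 1087 lower with array weights, and 805 and 570 with the replicate block. Without 1 array, 599 to 1041 were higher and 373 to 629 lower. Higher were 633 without wild-type replicate 1 and 599 without deletion replicate 1. Lower were 373 and 398 without deletion replicates 1 and 3. The replicate block ended the calls of SNF8, VPS24, YPT7 and VAM3 (adjusted p = 0.0638, 0.0652, 0.0696 and 0.0897) and of no other member, and not every array correlated best with its own number. Among the list genes named here it also ended those of APL6, ASG7, FIG4, MF(ALPHA)2, VAC7 and VTI1 (0.0628 to 0.091). With the whole array tested, 15 list genes lost their call (0.0506 to 0.171): these 6 and APM1, ATG20, MVP1, PRC1, RIM20, RIM21, SAG1, VAC8 and VPS34. An intensity trend ended the call of MF(ALPHA)2 (0.334), as did arrays centred on their medians (0.0525), and cyclic loess and array weights ended that of VAC7 (0.0594 and 0.0504). VPS24 also lost its call with arrays centred on their medians (adjusted p = 0.0513) and with array weights (0.053). VPS20 passed after quantile normalisation again (-0.13, adjusted p = 0.0348) and cyclic loess (0.0398), and DID2 with an intensity trend (0.0486) and with a filter on dim probe sets (0.0498). Array weights, which gave deletion replicate 1 a weight of 4.79 and wild-type replicate 2 one of 0.367, brought VPS26, VPS29, BRO1, DID2, DID4, PEP1 and VAM7 past the threshold (adjusted p = 0.009 to 0.0472). The cause of these differences was not tested. Wild-type replicate 2 lay above the mean of the other two for 28 of the 37 members, by a median of 0.04.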

Other observations

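Cargo and regulators of the route are given beside the 17.5% of all probe sets that were higher. Of 7 measured genes of Vps10 cargo, Golgi proteases and relatives of the receptor, 3 rose: STE13, a Golgi protease that retromer retrieves, by 0.48 (SE 0.041, adjusted p = 0.000338), and the vacuolar hydrolases PRC1 and PEP4 by 0.26 (SE 0.053) and 0.22 (SE 0.042). KEX2, another Golgi protease, had a change of -0.06 (adjusted p = 0.384). Of 12 genes of ubiquitin on the endosomal route 2 rose, or 16.7%, near that share: UBP5, a paralog of DOA4, by 0.56 (SE 0.041, adjusted p = 0.000186) and TRE2, which acts in the sorting of a manganese transporter, by 0.29 (SE 0.045), while the ligase gene RSP5 had a change of 0.05 (adjusted p = 0.345). The change of UBP5 exceeded that of DOA4 by 0.39 (two-sided exact permutation p = 0.1, the smallest possible). That pair was also picked with its values known, so the p-value is no independent test. In the Rim101 pathway, which processes a transcription factor on ESCRT proteins, 4 of 8 rose, among them RIM101 itself by 0.49 (SE 0.044, adjusted p = 0.000435), RIM20, a relative of BRO1, by 0.27 (SE 0.06) and RIM21, a sensor, by 0.21. Testing the whole array ended the calls of PRC1 (adjusted p = 0.0519), RIM20 (0.0596) and RIM21 (0.0911). The call of RIM21 ended when wild-type replicate 1, deletion replicate 1 or deletion replicate 2 was left out (adjusted p = 0.0628 to 0.0687).

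Genes next to the members in the R64 gene table were called about as often as all probe sets. Of 67 measured neighbours 12 were higher and 8 lower, or 29.9%, beside 29.2% of all probe sets tested. SRN2, which fell, lies end to end with YPS1, which rose by 0.92 (SE 0.046, adjusted p = 5.07e-05). VPS25, which rose, and its neighbour RSM26, which fell by 0.24, also went in opposite directions. In the other pairs with both genes called, the neighbour moved the same way as the member. These neighbours were ATG3 of VPS27 (0.22), MDH3 of VAM6 (0.16), FBP26 of VPS35 (0.21), EAF1 of GGA1 (0.24) and TDA10 of MVB12 (-0.53). DID4, which did not pass, lies end to end with MET14, which rose by 0.87 (SE 0.08). DOA4 is followed on the chromosome by FMP16, which fell by 0.96 (SE 0.14, adjusted p = 0.00291). Where the probes lie was not examined.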
